A study of Mus musculus with 8 samples.

Results

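The genes described here are 41 interferon-stimulated genes, read in RNA of mouse hearts. They were chosen by name, as genes that interferons are known to switch on, and with earlier results of these data known. All 41 were among the 54532 genes of the deposited table. Of these, 40 passed the filter on low values together with 13888 other genes, and Oas3 did not. The hearts came from C57BL/6 mice that were wild type (WT) or carried the allele called Piezo1-Cko (Cko), after sham surgery or after TAC. TAC is taken here as transverse aortic constriction, an operation that narrows the aorta and so raises the pressure against which the left ventricle pumps. Each of the 4 groups had 2 libraries: WT sham, WT TAC, Cko sham and Cko TAC. Piezo1 encodes a mechanically gated cation channel. Which cells carry the changed allele, what drives it, the age and sex of the mice and the time after surgery are not given in the sources used here. Nor do the labels say that 2 libraries of a group came from separate animals, so a p-value reflects only the spread between these libraries, which may be technical.

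Interferons are secreted proteins of the antiviral and antibacterial response. Type I interferons bind the receptor pair IFNAR1 and IFNAR2, whose kinases JAK1 and TYK2 activate STAT2, which with IRF9 is part of a complex that binds the interferon-stimulated response element in the promoters of target genes. Interferon gamma acts through its own receptor and is the main inducer of IRF1 and of the guanylate-binding proteins. In the heart, as in other tissues, cardiomyocytes, endothelial cells, fibroblasts and macrophages can all carry out this programme, and released nucleic acids of damaged cells can start it.

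The response element itself is shown for a few members, because it is the sequence feature through which type I interferon is known to act. It was searched as GAAANNGAAA, which reads TTTCNNTTTC on the other strand, in RefSeq promoter windows of 300 bases, 250 before and 50 after the start (GRCm38.p6). A window was at hand for 31 members, and 19 of them held the element on either strand, against 3.99% of all 27025 genes with a window. The gamma-activated site, searched as TTCNNNGAA, which reads the same on both strands, was in 9 of the 31 and in 9.55% of all genes. The letters of both motifs overlapped in 24 of all windows. In 15 of the 19 members an element lay before the start. Each stretch is printed 5′ to 3′ along the gene's strand with the elements in capitals. They lie at chr4:156200860-156200911 (Isg15, minus strand), chr19:34640770-34640828 (Ifit1, plus strand), chr19:34583358-34583431 (Ifit3, plus strand), chr19:34607754-34607827 (Ifit3b, plus strand), chr5:120907526-120907560 (Oas1a, minus strand), chr8:71537572-71537617 (Bst2, minus strand), chr12:26456548-26456587 (Rsad2, minus strand) and chr3:142530268-142530307 (Gbp7, plus strand).
Isg15: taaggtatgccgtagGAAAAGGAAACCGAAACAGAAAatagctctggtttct
Ifit1: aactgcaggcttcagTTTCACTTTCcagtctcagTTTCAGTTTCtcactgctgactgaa
Ifit3: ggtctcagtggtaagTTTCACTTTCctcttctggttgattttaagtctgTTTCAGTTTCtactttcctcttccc
Ifit3b: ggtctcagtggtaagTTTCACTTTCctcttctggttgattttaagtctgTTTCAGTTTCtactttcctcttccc
Oas1a: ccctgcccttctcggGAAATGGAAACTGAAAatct
Bst2: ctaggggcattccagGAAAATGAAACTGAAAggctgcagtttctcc
Rsad2: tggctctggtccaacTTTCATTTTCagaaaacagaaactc
Gbp7: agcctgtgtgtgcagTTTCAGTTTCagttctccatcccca
Isg15 held 3 overlapping elements, Ifit1, Ifit3, Ifit3b, Oas1a and Bst2 held 2, and Rsad2 and Gbp7 held 1. The 74-base stretches of Ifit3 and Ifit3b were identical. A match in these letters is a description of the sequence and was not tied to binding by any file used here.

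The values are FPKM, that is, fragments scaled by gene length and by a library size that was not the plain read total, from which whole reads could be recovered. Values of a group are given for replicate 1 and then replicate 2. The libraries held 15574769 to 17313084 reads in genes, of which mitochondrial genes took 17.6% to 24.4%. The labelled tissue was checked with 6 cardiomyocyte genes (Myh6, Tnnt2, Tnni3, Actc1, Ryr2 and Pln), which summed to 7955 to 12318 FPKM in every library. Piezo1 was at 2.35 and 3.09 FPKM in WT sham, 5.38 and 5.83 in WT after TAC, 3.83 and 3.23 in Cko after sham and 5.24 and 3.89 in Cko after TAC. Its gene total keeps reads of any part that is not deleted and of cells with an intact allele, so it does not check the genotype labels.

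The 2 WT sham libraries differed from each other across the whole set. All 40 tested members were higher in WT sham replicate 2 than in replicate 1, and 28 of them by at least 2-fold on the log2(FPKM + 0.5) scale, against 1.69% of all genes. The median log2 difference was 1.38, a 2.60-fold higher level, and it ran from 0.21 to 2.67, while the median over all genes was 0.02. In 30 of 40 members WT sham replicate 1 was the lowest of the 8 libraries (16.3% of all genes), and in 25 WT sham replicate 2 was the highest (20.0%). For 20 of 40 members these 2 libraries thus marked both ends of the range, against 1.41% of all genes. These are differences between single libraries and have no test. Because the set was chosen with earlier results of these data known, its counts are not independent evidence of the gap.

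No other pair came close. In WT TAC, 39 of 40 members were higher in replicate 2, with a median log2 difference of 0.45 and 1 member at 2-fold or more (1.03% of all genes). In Cko sham, 18 of 40 were higher in replicate 2, the median was -0.01 and no member reached 2-fold (0.653%). In Cko TAC, 30 of 40 were higher in replicate 2, the median was 0.20 and again no member reached 2-fold (0.840%). The mean deviation of the members from their own 8-library means was -0.74 and 0.62 in WT sham, -0.31 and 0.08 in WT after TAC, -0.13 and -0.15 in Cko after sham and 0.23 and 0.40 in Cko after TAC, on the log2 scale.

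**Figure D1:**
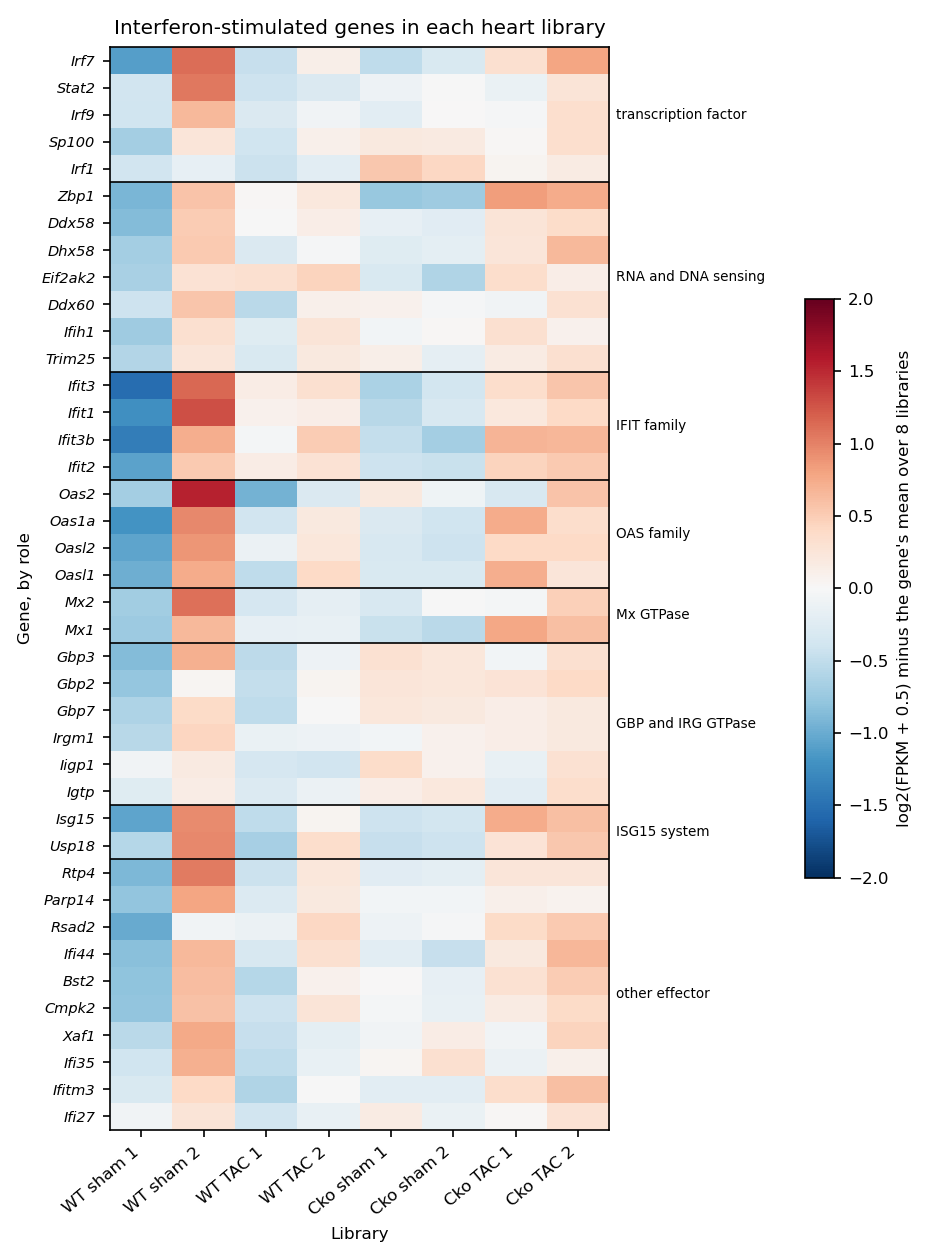
Heat map of the 40 tested interferon-stimulated genes (rows, grouped by role) in the 8 heart libraries (columns); colour gives log2(FPKM + 0.5) minus the gene's mean over the 8 libraries. WT sham replicate 1 is the lowest library for 30 of 40 genes and WT sham replicate 2 the highest for 25, while the 2 Cko sham libraries look alike.

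Other measures moved with the members between these 2 libraries, and their part in the difference was not tested. The summed level of 6 endothelial markers, all detected, was 525 FPKM in WT sham replicate 1 and 816 in replicate 2, and 534 to 1104 in the other 6 libraries. The summed level of 8 circadian clock genes was 46.2 and 127 FPKM, and 5 of the 8 were at least 2-fold higher in replicate 2. In replicate 1, 2 of these 8 genes stood above their own 8-library mean, and 6 did in replicate 2. Between the 2 Cko sham libraries the clock sum also differed, at 30.01 and 149 FPKM, while the members had a median log2 difference of -0.01. In the WT sham pair the 4 mural cell markers summed to 210.2 and 298 FPKM, with a mean log2 deviation of -0.54 and 0.33. That was a wider move than that of the endothelial markers (-0.57 and -0.21). Some measures moved the opposite way. Mitochondrial genes took 24.3% and 18.2% of the reads. Neutrophil markers summed to 48.0 and 7.004 FPKM, adipocyte markers to 22.4 and 2.19 and fibroblast markers to 254 and 138. The 10 macrophage markers, all detected, were close, at 442 and 478 FPKM in sum. The sum of the 4 monocyte markers was higher in replicate 2, at 1.25 and 3.62 FPKM, with a mean log2 deviation of -1.02 and -0.27. Cardiomyocyte markers summed to 12273 and 12318 FPKM, erythroid markers to 269 and 324, and those of plasmacytoid dendritic cells to 5.14 and 5.03. T cell markers were at 1.98 and 1.83 FPKM in sum, NK cell markers at 0.962 and 0.543 and B and plasma cell markers at 4.46 and 3.38. In whole tissue, fewer cells of a type and less RNA per cell cannot be told apart. The interferon genes themselves were nearly unread: of 21 ligand genes 17 were at 0 in all 8 libraries, Ifng had 7 reads in all, Ifnab 4, Ifnz 4 and Ifnb1 2.

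Among the transcription factors, Irf7 (ENSMUSG00000025498, chromosome 7, 141262706 to 141266481, minus strand, overlapping Phrf1), the factor that amplifies type I interferon production, had the widest range. It was at 5.63 and 28.0 FPKM in WT sham, 9.01 and 13.6 in WT after TAC, 8.75 and 10.1 in Cko after sham and 15.9 and 22.1 in Cko after TAC. WT sham replicate 2 was 4.98-fold above replicate 1, and the Cko TAC libraries stood above both Cko sham libraries. Stat2, a subunit of the activating complex, was at 5.28 and 15.1 FPKM in WT sham, 5.13 and 5.69 in WT after TAC, 6.53 and 6.98 in Cko after sham and 6.40 and 8.52 in Cko after TAC, so that only WT sham replicate 2 stood out. Irf9, the DNA-binding subunit, ran from 5.55 FPKM in WT sham replicate 1 to 11.9 in replicate 2, with the other 6 libraries between 5.98 and 9.57. Sp100, a nuclear body protein, ran from 4.74 FPKM in WT sham replicate 1 to 10.2 in Cko TAC replicate 2.

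Irf1 (ENSMUSG00000018899, chromosome 11, 53770014 to 53778374, plus strand, overlapping Gm17334), the factor most tied to interferon gamma, had another pattern. Its level was 8.42 and 9.80 FPKM in WT sham, 8.10 and 9.48 in WT after TAC, 16.3 and 15.02 in Cko after sham and 11.6 and 12.5 in Cko after TAC. The 2 WT sham libraries were within 1.16-fold of each other, the smallest gap of any tested member, and all 4 Cko libraries stood above all 4 wild-type libraries. The share of all genes with that split was not counted. The summed endothelial markers had it too, at 525, 816, 534 and 877 FPKM in wild type and 905, 989, 902 and 1104 in Piezo1-Cko. Their part in the level of Irf1 was not tested. Of its 2 promoter windows 1 held the gamma-activated site, and neither held the response element.

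Of the 7 genes that sense foreign or misplaced nucleic acid or act beside such sensors, Zbp1 (ENSMUSG00000027514, chromosome 2, 173206612 to 173218923, minus strand), which senses Z-form nucleic acid, had the widest range. Zbp1 stood at 0.718 and 2.90 FPKM in WT sham, 1.84 and 2.15 in WT after TAC, 0.851 and 0.907 in Cko after sham and 3.60 and 3.35 in Cko after TAC, from 36 to 234 reads. Its Cko TAC libraries were the 2 highest of the 8, and its Cko sham libraries were near WT sham replicate 1. Trim25, a ubiquitin ligase that acts with the sensor RIG-I, had the highest level of this group, at 7.41 and 13.5 FPKM in WT sham, 9.08 and 13.0 in WT after TAC, 12.4 and 9.96 in Cko after sham and 12.8 and 14.3 in Cko after TAC. Eif2ak2, which encodes the kinase PKR, was at 2.37 and 4.98 FPKM in WT sham, 5.12 and 5.62 in WT after TAC, 3.13 and 2.47 in Cko after sham and 5.24 and 4.39 in Cko after TAC. It was the only member whose 2 WT TAC libraries both exceeded both WT sham libraries. Ddx58, which encodes RIG-I, ran from 2.00 to 5.98 FPKM, Ifih1 (MDA5) from 1.33 to 3.23, and both had these extremes in the 2 WT sham libraries. Dhx58 (LGP2), a regulator of both, ran from 1.14 FPKM in WT sham replicate 1 to 3.61 in Cko TAC replicate 2. The helicase gene Ddx60 ran from 0.743 FPKM in WT TAC replicate 1 to 2.14 in WT sham replicate 2.

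The IFIT genes, whose proteins bind viral RNA, had the widest spread of any role. Ifit3 (ENSMUSG00000074896, chromosome 19, 34583531 to 34588731, plus strand) was at 5.44 and 37.4 FPKM in WT sham, 18.4 and 20.9 in WT after TAC, 10.4 and 12.7 in Cko after sham and 21.3 and 24.5 in Cko after TAC. That is a 6.86-fold gap between the WT sham libraries, on 135 and 925 reads. Ifit1 was at 2.65 and 17.4 FPKM in WT sham, 7.29 and 7.55 in WT after TAC, 4.47 and 5.36 in Cko after sham and 7.96 and 9.15 in Cko after TAC. Ifit2 was at 4.60 and 14.9 FPKM in WT sham, 11.4 and 12.6 in WT after TAC, 7.56 and 7.40 in Cko after sham and 14.1 and 14.9 in Cko after TAC, and Ifit3b ran from 1.30 FPKM in WT sham replicate 1 to 7.22 in replicate 2. In all 4 IFIT genes the TAC libraries of Cko were above the Cko sham libraries, and the WT TAC libraries lay between the 2 WT sham libraries. Ifit3 and Ifit3b transcripts are 97.8% identical over 1700 bases, so how reads were shared between these 2 genes is uncertain.

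Enzymatically active members of the OAS family sense double-stranded RNA and, through their product, activate RNase L. Oas2 was at 3.73 and 19.1 FPKM in WT sham, 3.01 and 5.04 in WT after TAC, 7.24 and 5.89 in Cko after sham and 4.94 and 9.57 in Cko after TAC. WT sham replicate 2 was 5.12-fold above replicate 1, while the other 6 libraries stayed between 3.01 and 9.57 and the TAC and sham libraries of Cko overlapped. Oas1a, Oasl1 and Oasl2 had a similar WT sham gap, at 5.11-fold, 4.60-fold and 4.57-fold, and in these 3 genes the Cko TAC libraries did stand above Cko sham. Oas1a is 97.6% identical to Oas1g over 1861 bases, and the latter was also highest in WT sham replicate 2, at 3.61 FPKM. Oas3, at or under 0.417 FPKM and 5 to 52 reads a library, was too low to be tested.

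Mx2 and Mx1 belong to the family of dynamin-like Mx GTPases. Whether working Mx protein was made in these mice cannot be read from RNA levels. Mx2 was at 0.506 and 3.02 FPKM in WT sham, 0.803 and 0.941 in WT after TAC, 0.813 and 1.12 in Cko after sham and 1.10 and 1.78 in Cko after TAC. Mx1 was at 0.297 and 1.58 FPKM in WT sham, 0.682 and 0.689 in WT after TAC, 0.466 and 0.414 in Cko after sham and 1.76 and 1.499 in Cko after TAC, from 16 to 123 reads. Mx2 was highest in WT sham replicate 2, and Mx1 in Cko TAC replicate 1 with WT sham replicate 2 next. The 2 transcripts share a stretch of 843 bases at 95.3% identity, so reads of one may have been counted for the other.

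Isg15 (ENSMUSG00000035692, chromosome 4, 156199424 to 156200818, minus strand) encodes the ubiquitin-like protein that is attached to other proteins in this response. Its level was 13.5 and 55.8 FPKM in WT sham, 20.1 and 29.8 in WT after TAC, 21.5 and 22.1 in Cko after sham and 48.3 and 43.6 in Cko after TAC. The 2 Cko sham libraries agreed to within 1 FPKM, both Cko TAC libraries were above them, and the 2 WT sham libraries enclosed all others. Usp18, the enzyme that removes ISG15 and restrains the type I receptor, was at 2.37 and 7.83 FPKM in WT sham, 2.20 and 4.93 in WT after TAC, 2.60 and 2.72 in Cko after sham and 4.65 and 5.73 in Cko after TAC, again with Cko TAC above Cko sham.

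**Figure D2:**
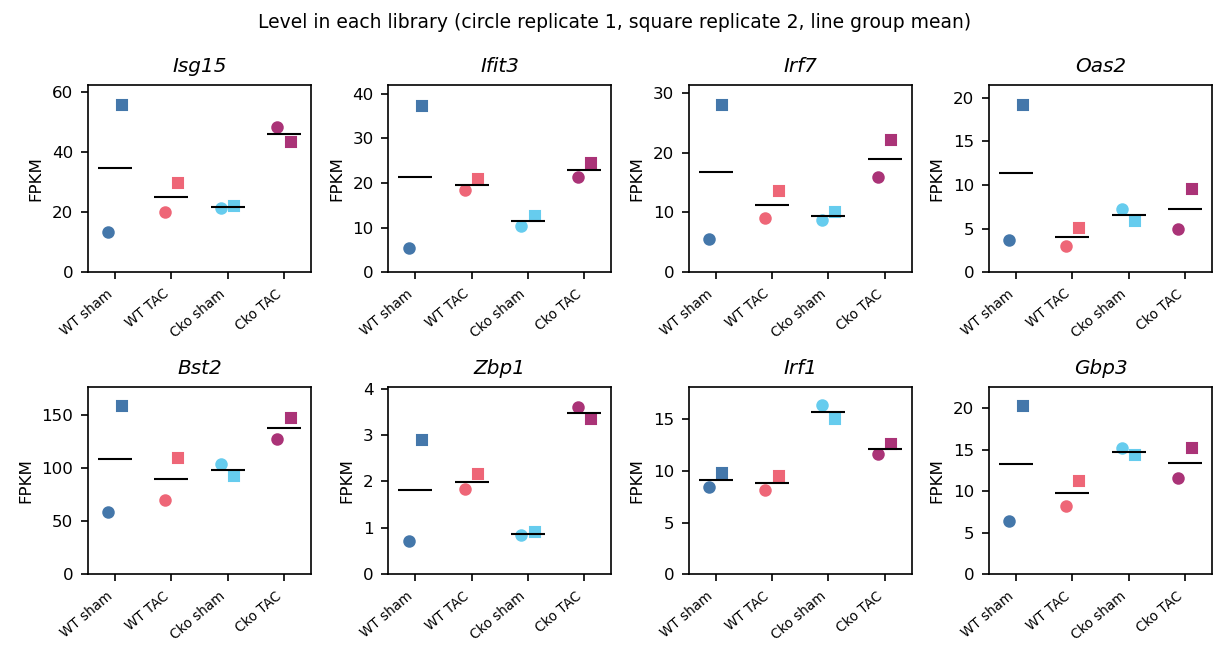
FPKM of Isg15, Ifit3, Irf7, Oas2, Bst2, Zbp1, Irf1 and Gbp3 in each library (circles replicate 1, squares replicate 2, lines the mean of 2 libraries), by group on the horizontal axis. The gap between the 2 WT sham libraries is 4.14-fold for Isg15 and 6.86-fold for Ifit3, and 1.16-fold for Irf1, whose 4 Cko libraries all exceed its 4 wild-type libraries. The share of all genes with such a split was not counted.

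The guanylate-binding proteins and immunity-related GTPases attack the vacuoles of intracellular pathogens and answer strongly to interferon gamma. Iigp1, the highest of the 6, was at 21.8 and 26.0 FPKM in WT sham, 18.2 and 17.5 in WT after TAC, 29.8 and 24.5 in Cko after sham and 20.6 and 28.4 in Cko after TAC. Gbp3 was at 6.44 and 20.2 FPKM in WT sham, 8.27 and 11.2 in WT after TAC, 15.2 and 14.4 in Cko after sham and 11.7 and 15.3 in Cko after TAC, the widest range of this role. Gbp2 was at 8.64 and 15.6 FPKM in WT sham, 10.8 and 15.8 in WT after TAC, 18.003 and 17.8 in Cko after sham and 18.5 and 20.1 in Cko after TAC, with all 4 Cko libraries above all 4 wild-type libraries. The summed endothelial markers split in the same way, and the share of all genes that did so was not counted. For this role the mean deviation from the 8-library mean was 0.21 and 0.17 in the Cko sham pair and 0.02 and 0.29 in the Cko TAC pair, whereas for the IFIT genes it was -0.52 and -0.45 and 0.42 and 0.53 in these pairs. Gbp7 ran from 4.10 to 8.70 FPKM and Irgm1 from 4.41 to 9.18, both between the 2 WT sham libraries. Igtp, which overlaps Irgm2 on the same strand, ran from 11.2 to 17.6 FPKM.

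The other 10 effectors include the most abundant member, Ifitm3, which blocks the fusion of virus with the cell membrane. Ifitm3 was at 253 and 411 FPKM in WT sham, 206 and 309.8 in WT after TAC, 269.6 and 269 in Cko after sham and 397 and 474 in Cko after TAC. Both Cko TAC libraries were above both Cko sham and both WT TAC libraries, and WT sham replicate 2 was between the 2 Cko TAC libraries. Bst2, or tetherin, which holds virus particles at the cell surface, was at 59.1 and 158 FPKM in WT sham, 69.5 and 109.9 in WT after TAC, 104 and 92.2 in Cko after sham and 128 and 147 in Cko after TAC. Rtp4, a chaperone of membrane receptors that also limits some viruses, had the widest range of these effectors, at 6.17 and 24.9 FPKM in WT sham, 8.73 and 14.0 in WT after TAC, 10.05 and 10.3 in Cko after sham and 14.1 and 14.2 in Cko after TAC. It overlaps Gm45338 on the same strand. Rsad2, which encodes viperin, was at 5.21 and 10.5 FPKM in WT sham, 10.2 and 14.8 in WT after TAC, 10.2 and 10.8 in Cko after sham and 14.5 and 16.0 in Cko after TAC, and here WT sham replicate 2 was no extreme and Cko TAC replicate 2 was the highest. Ifi27, a mitochondrial protein gene, had a narrow range, from 31.2 to 49.9 FPKM. Ifi35 (2.21-fold), Xaf1 (2.66-fold), Cmpk2, a nucleotide kinase (2.81-fold), Parp14, an ADP-ribosyltransferase (3.27-fold), and Ifi44 (3.60-fold) were each higher in WT sham replicate 2 than in replicate 1 by the FPKM ratio in brackets. Besides the overlaps given above, Irf9 overlaps Rnf31, Parp14 AC129574.2, Gbp7 Gm43802 and Sp100 n-R5s215 on the same strand. Reads of a stretch shared on the same strand cannot be told apart by strand. On the other strand Dhx58 overlaps Dhx58os, Usp18 Gm44148, Oas2 Gm43068, Oasl1 Gm13822 and Ifi35 Gm11626. There too, Gbp2 overlaps Mir6381, Eif2ak2 Gm26637 and n-R5s29, Rtp4 Masp1 and Sp100 Gm17017. Reads shared by pairs on opposite strands cannot be told apart where the strand setting is not known.

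**Figure D3:**
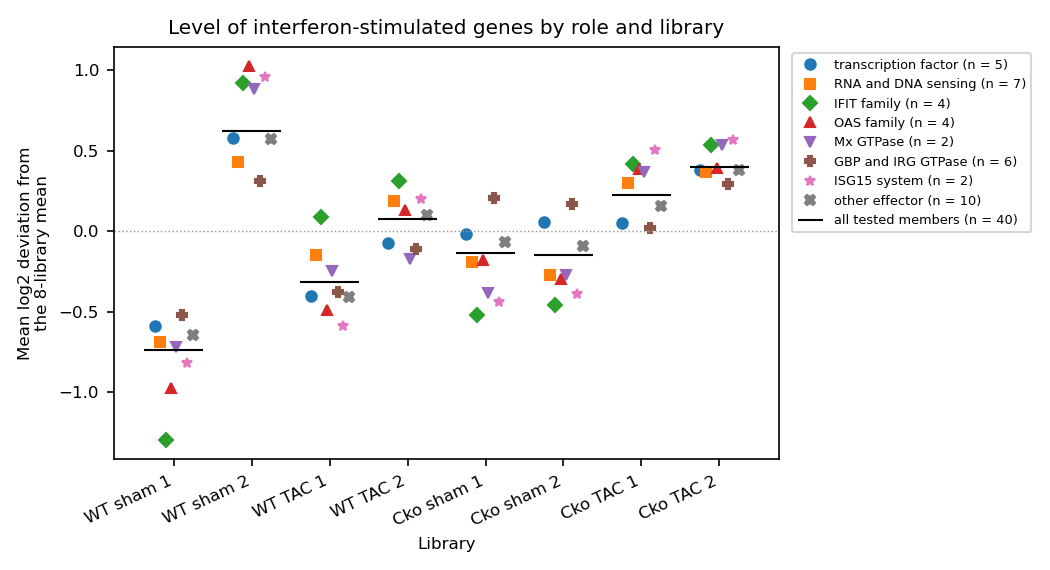
Mean log2 deviation from the 8-library mean for each role (markers) and for all 40 tested members (lines) in each library. The lines stand at -0.74 and 0.62 in WT sham and at -0.13 and -0.15 in Cko sham, and the GBP and IRG GTPases (brown) lie above the other roles in both Cko sham libraries.

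The gap between the 2 WT sham libraries was also read by the presence of the response element. The 18 tested members with the element had a median log2 gap of 1.20 (0.39 to 2.67), and the 12 with a window but no element had 1.33 (0.21 to 2.22). Igtp had 1 element and a small gap, and Irf7 had none in its window and one of the widest.

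The comparison of TAC with sham hearts in wild type asks how the set answers the pressure load in hearts with an intact Piezo1. No member passed limma's test (adjusted p under 0.05) against 13.2% of all genes, and none had an unadjusted p under 0.05, against 33.7%; by limma-voom on the recovered reads none passed and 2 had an unadjusted p under 0.05. The share of all genes called ranged from 0.537% without WT TAC replicate 1 to 15.3% without Cko TAC replicate 2, and was 1.33% to 3.60% without a WT sham or a Cko sham library. The median log2 fold change was -0.07, with 17 of 40 above 0, beside a median of 0.01 over all genes. Scaled to total reads it was 0.13, with 28 of 40 above 0, beside 0.21 over all genes. Rsad2, with the smallest p, was at 7.84 ± 3.72 FPKM (SD, n = 2) in sham and 12.5 ± 3.26 in TAC, a log2 fold change of 0.69 (SE 0.301, limma adjusted p = 0.155). Iigp1 was at -0.41 (adjusted p = 0.167) and Ifi27 at -0.36 (adjusted p = 0.206). Both WT TAC libraries exceeded both sham libraries for 1 of 40 members, Eif2ak2, against 31.3% of all genes, and both were lower for Iigp1 and Ifi27, against 30.9%.

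The wild-type response depended on which WT sham library was kept. Without WT sham replicate 2 its median was 0.56 and 4 members passed as higher under TAC, Ifit1, Ifit2, Ifit3 and Ifit3b, in a fit that called 1.33% of all genes. Without replicate 1 the median was -0.73 and 3 members passed as lower, Ifit1, Oas2 and Stat2, against 3.60% of all genes. Ifit1 had a log2 fold change of 1.33 (limma adjusted p = 0.0392) in the first case and -1.17 (limma adjusted p = 0.0437) in the second. Ifit3 was at 1.76 (limma adjusted p = 0.0292) and -0.91 (limma adjusted p = 0.0508). Eif2ak2 and Rsad2 were above 0 in both cases, at 1.03 and 0.10 for Eif2ak2 and 1.16 and 0.22 for Rsad2, and Iigp1 and Ifi27 were below 0 in both. In each of these fits 1 library stands for WT sham and is assumed to vary like the other groups.

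**Figure D4:**
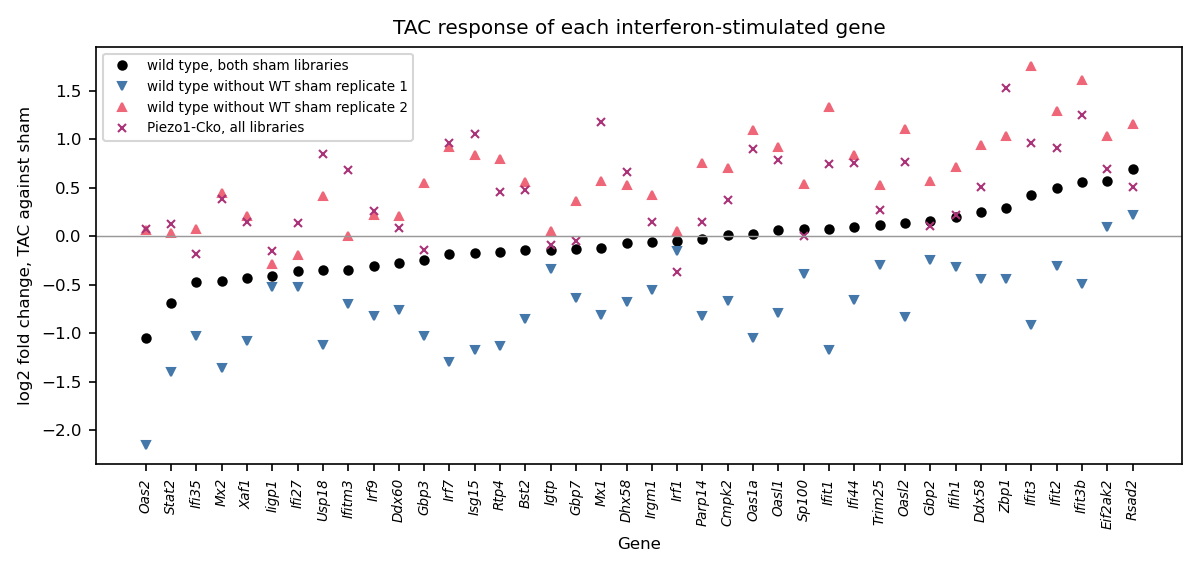
log2 fold change (on log2(FPKM + 0.5)) of TAC against sham for each of the 40 tested members, in wild type with all libraries (circles), in wild type without WT sham replicate 1 (down triangles) or without WT sham replicate 2 (up triangles) and in Piezo1-Cko (crosses). The wild-type median moves from -0.07 to -0.73 or 0.56 with the sham library left out, and the Piezo1-Cko median is 0.42.

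In Piezo1-Cko, where the 2 sham libraries lay close together, most of the set was at higher values after TAC. Both TAC libraries exceeded both sham libraries for 26 of 40 members, against 28.0% of all genes, and both were lower for Gbp7 and Irf1, against 28.3%. The median log2 fold change was 0.42, with 33 of 40 above 0, or 39 when scaled to total reads, which moved the median of all genes to 0.18. No member passed limma's test, against 1.49% of all genes, and 5 had an unadjusted p under 0.05, against 21.8% of all genes; by limma-voom none passed and the same number were under 0.05. The share of all genes called fell to 0% with either of the Cko sham libraries left out and to 0.0434% with Cko TAC replicate 1 left out. Zbp1 was at 0.879 ± 0.0398 FPKM (SD, n = 2) in sham and 3.47 ± 0.177 in TAC, a log2 fold change of 1.53 (SE 0.410, limma adjusted p = 0.0928). Isg15 was at 21.8 ± 0.440 and 45.9 ± 3.34 FPKM (log2 fold change 1.06, limma adjusted p = 0.315), and Mx1 had 1.18 (limma adjusted p = 0.142). Ifit3b had 1.25, Ifit3 0.96, Irf7 0.96 and Ifit2 0.91.

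This comparison shares 1 estimate of the spread with the WT sham pair. Fitted on the 4 Cko libraries alone, limma called 8 members higher under TAC, namely Ifit2, Ifit3, Ifit3b, Isg15, Mx1, Oasl2, Usp18 and Zbp1, against 3.49% of all genes. Zbp1 then had an adjusted p of 0.0233 and Isg15 of 0.0252. With all groups but without WT sham replicate 1, 3 members passed (Ifit2, Mx1 and Zbp1), against 0.775% of all genes, and without replicate 2 Ifit2 and Zbp1 did, against 0.716%. Among the GBP and IRG genes Gbp3 was at -0.14, Gbp7 at -0.05, Igtp at -0.09, Iigp1 at -0.15, Gbp2 at 0.11 and Irgm1 at 0.15, and Irf1 was at -0.37 (limma adjusted p = 0.178). Markers of macrophages were also higher after TAC: all 10 were detected, they summed to 508 and 510 FPKM under sham and 1058 and 798 under TAC, and 3 of the 10 rose by limma. Their median log2 fold change was 0.80. In wild type it was 0.70 and 4 of the 10 rose, beside a median of -0.07 for the members. Within the Cko TAC pair the macrophage markers had a mean deviation of 0.83 and 0.33, and the members 0.23 and 0.40. The 4 monocyte markers summed to 1.89 and 2.56 FPKM under sham and 27.8 and 7.23 under TAC. The 8 clock genes summed to 30.01 and 149 FPKM under sham and 109.8 and 136 under TAC, and the 6 cardiomyocyte markers to 11829 and 12035 under sham and 8165 and 9159 under TAC. Their part in the result was not tested.

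Over both genotypes, no member passed limma's test for TAC against sham, against 25.4% of all genes, and 3 had an unadjusted p under 0.05, against 40.3% of all genes. These were Zbp1 (log2 fold change 0.91, limma adjusted p = 0.0561), Eif2ak2 (0.63, limma adjusted p = 0.0575) and Rsad2 (0.60, limma adjusted p = 0.0764). The median was 0.18, with 27 of 40 above 0. limma-voom on the recovered reads called 2 members, Eif2ak2 and Zbp1, against 26.9% of all genes. With the replicate number as a block limma called Rsad2 and Zbp1, also against 26.9%, and scaled to total reads it called Eif2ak2, Rsad2 and Zbp1, against 33.4%. Without WT sham replicate 2, 16 members passed as higher, among them Isg15, Irf7, Ifit1, Ifit2, Ifit3, Mx1, Rsad2 and Zbp1, in a fit that called 17.0% of all genes. Without replicate 1, 5 passed, Zbp1 as higher and Gbp3, Ifi35, Oas2 and Stat2 as lower, against 20.9%. In this comparison all 10 macrophage markers rose by limma, with a median log2 fold change of 0.79, 2 of 4 monocyte markers rose and 4 of 6 cardiomyocyte markers fell. Their part in the values of the members and of the signalling genes given further on was not tested.

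Piezo1-Cko was compared with wild type under sham to ask what the allele does without the load. No member passed limma's test, against 0.0215% of all genes, and 1 had an unadjusted p under 0.05, against 7.68% of all genes. That was Irf1, at 9.11 ± 0.976 FPKM (SD, n = 2) in WT sham and 15.7 ± 0.932 in Cko sham, a log2 fold change of 0.75 (SE 0.138, limma adjusted p = 0.266). Irf1 and Gbp2 were the members whose Cko sham libraries both exceeded both WT sham libraries, 2 of 40 against 19.3% of all genes, and none were both lower, against 20.3%. Gbp2 had a log2 fold change of 0.60 (limma adjusted p = 0.689). The median of the set was -0.15, with 14 of 40 above 0, and it was -0.74 without WT sham replicate 1 and 0.67 without replicate 2. By limma-voom no member passed and 2 had an unadjusted p under 0.05. In this comparison the median log2 fold change was 0.62 for endothelial and 0.21 for macrophage markers. It was -0.19 for cardiomyocyte and -1.22 for neutrophil markers. The part of these marker sets in the values of the members was not tested.

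Under TAC, the set was at higher values in Piezo1-Cko than in wild type, and no single member passed. Both Cko TAC libraries exceeded both WT TAC libraries for 27 of 40 members, against 20.3% of all genes, and none were both lower, against 19.4%. The median log2 fold change was 0.42, with 39 of 40 above 0; Eif2ak2 was the exception at -0.15. limma called 0 of the 13928 genes (0%), and 2 members had an unadjusted p under 0.05, against 9.11% of all genes; by limma-voom 0 genes were called and 5 members had an unadjusted p under 0.05. Irf1 was at 8.79 ± 0.973 FPKM (SD, n = 2) in WT TAC and 12.1 ± 0.693 in Cko TAC (log2 fold change 0.44, SE 0.138, limma adjusted p = 0.508). Ifitm3 was at 258 ± 73.1 and 435 ± 54.2 FPKM (log2 fold change 0.78, limma adjusted p = 0.526). Isg15 had the largest value, 0.89 (limma adjusted p = 0.642). The median ran from 0.19 without WT TAC replicate 1 to 0.61 without WT TAC replicate 2. Endothelial markers summed to 534 and 877 FPKM in WT TAC and 902 and 1104 in Cko TAC, and macrophage markers to 701 and 674 against 1058 and 798. Monocyte markers summed to 6.204 and 7.13 against 27.8 and 7.23 FPKM, and the clock genes to 34.8 and 97.9 against 109.8 and 136, with a median log2 fold change of 0.92. Other sets were lower or level in Cko TAC. The median log2 fold change was -1.04 for neutrophil, -0.18 for fibroblast and 0.03 for cardiomyocyte markers. It was -0.13 for the 1 tested plasmacytoid dendritic cell marker. The T cell, NK cell, B and plasma cell, mural, erythroid and adipocyte sets had medians of 0.17 to 1.35. The part of all these sets in the result was not tested.

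The interaction asks whether the response to TAC differed between genotypes. No member passed limma's test, against 0.00718% of all genes, and 1 had an unadjusted p under 0.05, against 4.77% of all genes, by limma-voom 1 as well. That 1 was Ifitm3, with a difference of 1.04 between the log2 responses (SE 0.389, limma adjusted p = 0.911). Mx1 had 1.30, Zbp1 1.23, Isg15 1.22 and Usp18 1.20, each with the same adjusted p. The median was 0.55, with 36 of 40 above 0, and it was 1.22 without WT sham replicate 1 and -0.23 without WT sham replicate 2. The comparisons above share control libraries with each other, so their values are given side by side and not as independent results.

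The genes that carry the interferon signal were read beside its targets, and all 6 receptor genes were tested. Ifnar1, a chain of the type I receptor, was at 6.09 and 6.17 FPKM in WT sham, 9.22 and 9.15 in WT after TAC, 7.68 and 7.28 in Cko after sham and 10.9 and 9.29 in Cko after TAC, and its TAC libraries exceeded its sham libraries in both genotypes. It rose under TAC over both genotypes (log2 fold change 0.47, limma adjusted p = 0.0102), a call kept whichever library was left out. In wild type alone it rose by 0.55 (limma adjusted p = 0.0326) and lost the call without any 1 of the 4 wild-type or 2 Cko sham libraries. Il10rb, shared by the lambda interferon and interleukin-10 receptors, fell over both genotypes (-0.55, limma adjusted p = 0.0157), and lost the call without either Cko sham library. Ifnar2, Ifngr1, Ifngr2 and Ifnlr1 did not pass.

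Of 7 kinase and STAT genes listed, 6 were tested. Stat3, which carries interleukin-6 signals, rose under TAC over both genotypes (0.63, limma adjusted p = 0.0113) but not without Cko sham replicate 1 (limma adjusted p = 0.0507). Stat5a fell in wild type (-0.61, limma adjusted p = 0.0434), a call lost without any 1 of 6 libraries. Jak1, Jak2, Tyk2 and Stat5b did not pass, and Stat4 was too low to be tested.

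Of 17 tested sensors and adaptors, Tmem173, which encodes STING, was at 3.94 and 5.51 FPKM in WT sham, 8.66 and 9.70 in WT after TAC, 5.44 and 6.38 in Cko after sham and 11.1 and 8.80 in Cko after TAC. It rose under TAC over both genotypes (0.80, limma adjusted p = 0.00809) whichever library was left out, in the comparison in which all 10 macrophage markers also rose. Mb21d1, which encodes the DNA sensor cGAS, and Tlr8 also rose and Irf3 and Rnaseh2a fell over both genotypes, and each lost the call without any 1 of 7 libraries. In wild type alone Tmem173 rose (0.90, limma adjusted p = 0.0276), a call lost without any 1 of 6 libraries, and Irf3 fell (-0.56, limma adjusted p = 0.0457), a call lost without any 1 of the 8.

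Of 12 negative regulators, 4 rose and 1 fell over both genotypes, where 25.4% of all genes were called. Socs3, an inhibitor of JAK kinases, was at 3.19 and 4.85 FPKM in WT sham, 6.71 and 7.15 in WT after TAC, 2.82 and 2.03 in Cko after sham and 14.3 and 7.11 in Cko after TAC and rose by 1.31 (limma adjusted p = 0.00930). In Piezo1-Cko alone it rose by 1.87 (limma adjusted p = 0.0453), a call lost without any 1 of 5 libraries. The phosphatase gene Ptpn6 rose over both genotypes by 0.87 (limma adjusted p = 0.0105), and it and Socs3 kept that call whichever library was left out. Ptpn1 rose but lost its call without any 1 of 3 libraries. Axl rose and Irf2bp2 fell, each with a call lost without any 1 of 6.

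A further 56 interferon-induced genes were read beside the members, and 54 were tested. Of these, 14 were at least 2-fold higher in WT sham replicate 2 than in replicate 1, against 1.69% of all genes. For 13 of the 54, the level was lowest in WT sham replicate 1 and highest in replicate 2, against 1.41%. Their mean deviation was -0.45 and 0.24 in WT sham, a smaller gap than that of the members. Under TAC over both genotypes, 6 rose and 2 fell, against the 25.4% of all genes called. Cxcl10, a chemokine that draws T cells, was at 0.375 and 0.751 FPKM in WT sham, 4.06 and 2.39 in WT after TAC, 0.551 and 0.435 in Cko after sham and 5.44 and 3.39 in Cko after TAC, with both TAC groups above both sham groups. It rose by 2.04 over both genotypes (limma adjusted p = 0.00288). Ifi30, a lysosomal reductase gene, and Slfn9 rose by 1.03 (limma adjusted p = 0.00641) and 1.37 (limma adjusted p = 0.00928), and the GTPase gene Tgtp2 fell by 0.78 (limma adjusted p = 0.00924). Those 4 calls held whichever library was left out. Lgals3bp, Ube2l6 and Epsti1 rose and Tgtp1 fell, each with a call lost without any 1 of 3 to 6 libraries. In single genotypes Cxcl10 rose in wild type (1.79, limma adjusted p = 0.0189) and in Piezo1-Cko (2.28, limma adjusted p = 0.0296), and Ifi30 rose in Piezo1-Cko (1.26, limma adjusted p = 0.0453). Each of these 3 calls was lost without any 1 of 3 to 5 libraries.

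Over all 95 tested genes of these lists, 22.1% were called for TAC over both genotypes, near the 25.4% of all genes. For TAC in wild type 5.26% were called, against 13.2% of all genes, and in Piezo1-Cko 3.16%, against 1.49%. None was called in a comparison of genotypes or in the interaction.

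**Figure D5:**
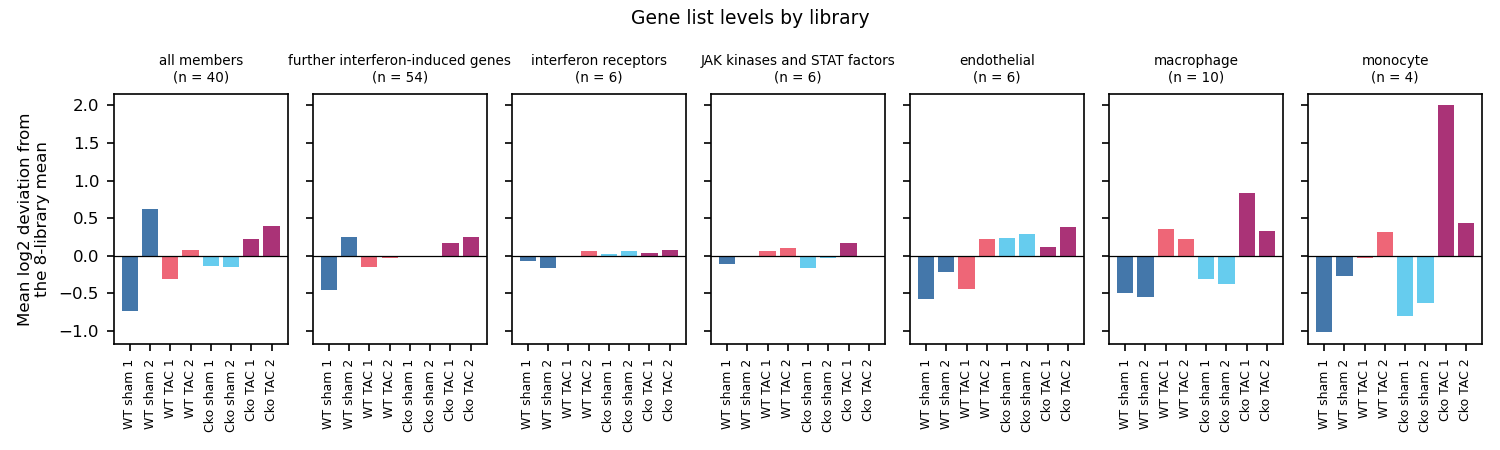
Mean log2 deviation from the 8-library mean (bars) in each library for all 40 tested members, 54 further interferon-induced genes, 6 receptors, 6 kinase and STAT genes and 6 endothelial, 10 macrophage and 4 monocyte markers. The members stand at -0.74 and 0.62 in WT sham, while the receptors stand at -0.07 and -0.17, and the monocyte markers are highest in Cko TAC replicate 1 at 2.00.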

How the data were processed

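RNA was extracted with Trizol and libraries were made with the NEBNext Ultra RNA kit, per the labels' protocols. Per the submitters' processing notes, featureCounts 1.5.0-p3, Bowtie 0.12.2 and CASAVA 1.8 were used, and mm10 and mm8 are both named as builds without their use; the strand setting is not given in the sources used here. The authors deposited 1 table whose values are FPKM, although it is named as counts. Multiplied by gene length, 100% of values were whole numbers of reads to within 0.01, once divided by a constant of the library, and these reads were used for depth. The scaled library size was 0.886 to 0.945 times the reads in the sham libraries and 1.02 to 1.10 times in the TAC libraries. It was 0.995 to 1.003 times a size taken from the median ratio of each gene's reads to its geometric mean over the libraries. Scaling to total reads multiplies each value by the ratio of scaled size to reads, which was higher in TAC.

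Samples were grouped by genotype and surgery from the labels. The values log2(FPKM + 0.5) of genes with at least 0.5 FPKM and 10 reads in at least 2 libraries were fitted with limma 3.58.1 (R 4.3.3), 1 term per group over all 8 libraries, with an intensity trend and robust moderation (4 residual degrees of freedom, median prior 3.54). This scale understates the change of low genes. Adjusted p-values are two-sided, Benjamini-Hochberg over the 13928 tested genes, with a threshold of 0.05, in 6 comparisons. The deposited coordinates of 40 of 41 members were those of GENCODE release 21 for mouse (GRCm38). Near-identical copies were sought with blastn 2.17.0+ (at least 90% identity over at least 50% of a transcript), and promoters are from RefSeq (GRCm38.p6). The fit was also run on simulated reads that gave every gene the same dispersion. Those reads held no shift between libraries of a group like that in WT sham, so they do not test that case. Sums of 14 further sets, cell type markers and clock genes, were read; all are given for the WT sham pair and some beside other comparisons.

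The members and all lists were chosen with earlier results of these data known. Values in all libraries are given for the member with the highest mean and the one with the widest range in each of 8 roles; of the signalling and further induced genes, those that passed a test and the ligand, receptor and STAT genes are named. One further gene is not reported here. Other members shown in full were chosen after their values were seen. Alternatives were pseudocounts of 0.1 and 1 FPKM, no filter, scaling to total reads, limma-voom on the recovered reads, the replicate number as a block, the 4 compared libraries alone and each library left out.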

Additional observations from a re-analysis of the deposited data

How the results depend on the processing

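With each library left out in turn, the number of members called ran from 0 to 4 for TAC in wild type, 0 to 3 for TAC in Piezo1-Cko and 0 to 16 for TAC over both genotypes, and was 0 for the other 3 comparisons. The median log2 fold change ran from -0.73 to 0.56 for TAC in wild type, from -0.74 to 0.67 for Piezo1-Cko against wild type under sham and from -0.23 to 1.22 for the interaction. These ends all came from leaving out 1 of the WT sham libraries. For TAC in Piezo1-Cko the 4 compared libraries alone gave 8 called members. For TAC over both genotypes, scaling to total reads gave 3, limma-voom 2 and the replicate block 2 (Rsad2 and Zbp1). Scaling to total reads shifted the median of all genes by 0.19 in that comparison and put 36 rather than 27 of 40 members above 0; for TAC in wild type it put 28 rather than 17 above 0, with a median of 0.13 beside 0.21 over all genes, and the call shares are relative to such shifts. Same-numbered libraries deviated together with correlations of 0.0256 to 0.248, not all above 0.1, so the numbers were treated as names. These 3 medians changed sign with the WT sham library left out, and so did that of TAC over both genotypes, from 0.18 to -0.16 without WT sham replicate 1. For Zbp1, Mx1, Eif2ak2 and Rsad2, among the 3 members with the smallest p in each comparison, 16 values passed under some alternative and not in the reported fit, and 143 values of called signalling or further induced genes no longer passed. Genes called overall changed from 1842 to 247 (no filter), 365 (4 libraries) and 74 (without WT TAC replicate 1) for TAC in wild type, and from 208 to 0 and 466 in Piezo1-Cko, where limma-voom gave 390 and total scaling 513; over both genotypes no filter gave 1927 rather than 3537. The cause of these shifts was not tested. With 2 libraries a group and members at as few as 16 reads in a library, depth limits Mx1 (16 to 123 reads) and the untested Oas3 (5 to 52 reads) in particular.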
